A study of Mus musculus with 6 samples.

Results

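Ly6a, Ly6c1, Ly6c2 and Ly6e are 4 genes of the Ly6 family of surface proteins, out of 55367 genes in the expression table of a mouse tumour cell line. They were chosen by symbol, and the set was built around Ly6c1 because its transcript was among those with the largest fall after treatment. At least 1 read was present for 24138 genes, and the 12618 whose mean reached 10 reads entered the fit, among them 3 of the 4 Ly6 genes. Ly6c2 did not reach that level.

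Ly6 proteins are small, cysteine-rich proteins with a compact fold held by disulfide bonds, and most of them sit on the outer face of the cell held by a glycosylphosphatidylinositol (GPI) anchor. In the mouse, Ly6a encodes Sca-1, used to mark haematopoietic stem and progenitor cells, and Ly6c1 and Ly6c2 encode the Ly6C antigens, used to sort monocytes. Ly6e is widely expressed, limits entry of some viruses and serves as a receptor for syncytin-A in the mouse placenta. Type I and type II interferons are known to raise several Ly6 transcripts in immune and other cells.

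RNA sequencing was done in LLC cells, a line derived from a mouse Lewis lung carcinoma, labelled wild type. One group of 3 libraries came from cells treated with 5 µM STM2457, a small molecule that inhibits the RNA methyltransferase METTL3, and the other group of 3 came from cells given the solvent DMSO, both for 46 h. METTL3 writes N6-methyladenosine (m6A) on RNA. Whether each library stands for its own culture is not in the labels, so every p-value reflects only how much these 6 samples vary, which may be technical variation.

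Ly6c1 and Ly6c2 are near-identical copies, which matters for how reads are assigned to each, so the start of their coding sequences is shown first. The sequences are positions 1 to 150 of the coding sequence of transcripts Ly6c1-201 and Ly6c2-201 in the GENCODE vM21 annotation of GRCm38, and capitals mark the 6 positions at which they differ.
Ly6c1: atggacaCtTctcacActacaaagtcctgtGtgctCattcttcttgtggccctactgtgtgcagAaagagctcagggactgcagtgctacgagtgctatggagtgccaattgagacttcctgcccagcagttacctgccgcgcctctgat
Ly6c2: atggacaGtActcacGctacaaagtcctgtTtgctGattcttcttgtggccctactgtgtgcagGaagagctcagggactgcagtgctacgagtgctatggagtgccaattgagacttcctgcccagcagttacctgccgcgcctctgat
Over the whole coding sequence of 396 bases Ly6c1 and Ly6c2 differed at 9 positions, an identity of 97.7%. Ly6a was less close, with 83.8% identity to Ly6c1 and 83.6% to Ly6c2. Ly6e was the most distant member, with 56.8% identity to Ly6a, 54% to Ly6c1 and 52.6% to Ly6c2.

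Near-identity of this kind limits what can be said of Ly6c2. Of all exact 50-base windows in the annotated transcripts of Ly6c1, 21.5% also occurred in Ly6c2 and 11.1% in Ly6a, and at 100 bases these shares were 9.05% and 1.08%. Of the 50-base windows of Ly6c2, 13.9% occurred in Ly6c1, and of those of Ly6a, 15% occurred in Ly6c1. No window of Ly6e was found in another gene at either length. Neither the read length nor the treatment of reads that match several genes is stated in the labels, so reads of Ly6c1 and Ly6c2 that carry no differing base could be split between the copies or left out.

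The 4 genes lie on one stretch of mouse chromosome 15 (GRCm38). Ly6e lies on the plus strand at chr15:74955051-74959905, followed by Ly6a at chr15:74994877-74998031, Ly6c1 at chr15:75044018-75048830 and Ly6c2 at chr15:75108158-75111970, all 3 on the minus strand. No exon of the 4 genes overlaps an exon of another annotated gene on either strand.

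The regions around the starts of Ly6c1 and Ly6c2 are shown because these copies, close in coding sequence, had very different levels. They are taken from the RefSeq promoter table for GRCm38.p6, which held Ly6c1 and Ly6c2 among the 4 genes, and run on the minus strand from 250 bases before to 50 bases after an annotated start. The windows are chr15:75048788-75049087 for Ly6c1 and chr15:75111922-75112221 for Ly6c2, the best-matching pair of the annotated starts of both genes. Capitals mark matches of the motifs TATAAA and CCAAT.
Ly6c1 promoter: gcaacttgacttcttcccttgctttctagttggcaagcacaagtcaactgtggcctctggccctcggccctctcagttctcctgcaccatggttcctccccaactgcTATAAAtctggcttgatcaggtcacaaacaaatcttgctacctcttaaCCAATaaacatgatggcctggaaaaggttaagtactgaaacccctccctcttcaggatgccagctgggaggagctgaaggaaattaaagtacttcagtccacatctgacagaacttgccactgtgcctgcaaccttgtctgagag
Ly6c2 promoter: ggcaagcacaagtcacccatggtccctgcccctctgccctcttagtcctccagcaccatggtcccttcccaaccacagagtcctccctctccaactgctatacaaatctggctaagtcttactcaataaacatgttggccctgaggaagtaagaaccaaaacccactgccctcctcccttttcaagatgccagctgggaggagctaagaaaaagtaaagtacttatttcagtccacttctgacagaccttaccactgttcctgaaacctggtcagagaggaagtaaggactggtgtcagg
In an alignment of 266 bases, 208 were identical (78.2%). The Ly6c1 window held TATAAA 143 bases and CCAAT 95 bases before the start, and the Ly6c2 window held neither. The windows of the other annotated starts, chr15:75048614-75048913 for Ly6c1 and chr15:75111888-75112187 for Ly6c2, held neither motif. On both strands, TATAAA was present in 13.6% and CCAAT in 37.4% of the 32851 promoters in the table. The interferon-response motifs GAAANNGAAA, present in 3.44% of all promoters, and TTCNNNGAA, present in 8.3%, were absent from the annotated windows of Ly6c1 and Ly6c2, as was GGGCGG, present in 35.7%. These are letter matches in short windows and not measured sites.

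Levels are given as normalised reads, the reads recovered from the deposited log2 values divided by the size factor of the library. Libraries held 17877614 to 17917204 reads in genes after STM2457 and 17671692 to 17679482 after DMSO. A count of 0 allows up to 3 reads, or 0.167 to 0.17 CPM, which covers counting error only. Mettl3, the gene of the inhibited enzyme, averaged 488 ± 32.5 normalised reads after STM2457 and 537 ± 66 after DMSO (SD, n = 3 each), and was not called by limma (adjusted p = 0.15). It was called lower by limma without DMSO replicate 1 (adjusted p = 0.0089) and with libraries centred on their median (0.035). Because STM2457 acts on the enzyme's activity, the Mettl3 transcript does not check the treatment.

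Ly6c1 and Ly6a had lower transcript levels after STM2457 in every library, at 0.386 and 0.454 of their DMSO level, while Ly6e, the most abundant of the 4, was 1.05 times as high. Ly6c2 was close to undetected in both groups. The contrast itself was used to choose the genes, so these differences are described and not tested. In bulk RNA, fewer cells that express a gene and less of its RNA per cell cannot be told apart.

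Ly6c1 encodes a Ly6C antigen. It had 1072, 1083 and 1273 normalised reads in STM2457 replicates 1, 2 and 3, against 2638, 3051 and 3207 in DMSO replicates 1, 2 and 3. The groups were far apart, with the highest STM2457 library well below the lowest DMSO library. The means were 1143 ± 113 after STM2457 and 2965 ± 294 after DMSO (SD, n = 3 each), a log2 fold of -1.38 by limma-voom. On the deposited scale, which shrinks differences, the values were 10.44, 10.45 and 10.57 after STM2457 and 11.16, 11.29 and 11.34 after DMSO, a log2 difference of -0.78. Among 12618 tested genes this was the 8th largest fall on the deposited scale and the 135th in the recovered reads, where low genes are not shrunken.

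Ly6a, the Sca-1 gene, had 433.1, 448.2 and 502.4 normalised reads in STM2457 replicates 1, 2 and 3, against 916.4, 1037 and 1097 in DMSO replicates 1, 2 and 3. As for Ly6c1, the groups were apart and replicate 3 was the highest of its group in both. The means were 461 ± 36.4 after STM2457 and 1017 ± 92 after DMSO (SD, n = 3 each), a log2 fold of -1.14 by limma-voom and a log2 difference of -0.59 on the deposited scale. Counted from the largest fall, this difference ranked 27th on the deposited scale and 254th in the recovered reads.

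Ly6e, the widely expressed antiviral member, had 19520, 20120 and 20010 normalised reads in STM2457 replicates 1, 2 and 3, against 18390, 19160 and 19060 in DMSO replicates 1, 2 and 3. All STM2457 libraries lay above all DMSO libraries, by a margin smaller than the range from lowest to highest library within either group. The means were 19885 ± 319 after STM2457 and 18869 ± 417 after DMSO (SD, n = 3 each), a log2 fold of 0.08 by limma-voom. On the deposited scale the log2 difference was 0.045, and it was 0.013 with libraries centred on their median and 0.007 with libraries centred on their upper quartile.

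Ly6c2, the near-identical copy of Ly6c1, had 2, 2 and 0 reads in STM2457 replicates 1, 2 and 3, against 5, 1 and 2 reads in DMSO replicates 1, 2 and 3. The groups overlapped. The totals were 4 reads after STM2457, with an exact Poisson 95% interval of 1.09 to 10.2, and 8 reads after DMSO, with an interval of 3.45 to 15.8. A difference was not detectable at this depth. Summing the reads of Ly6c1 and Ly6c2 as 1 gene gave a log2 fold of -1.37, against -1.38 for Ly6c1 alone. With so few Ly6c2 reads the sum could hardly differ, and it does not cover reads left out for matching both copies.

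**Figure D1:**
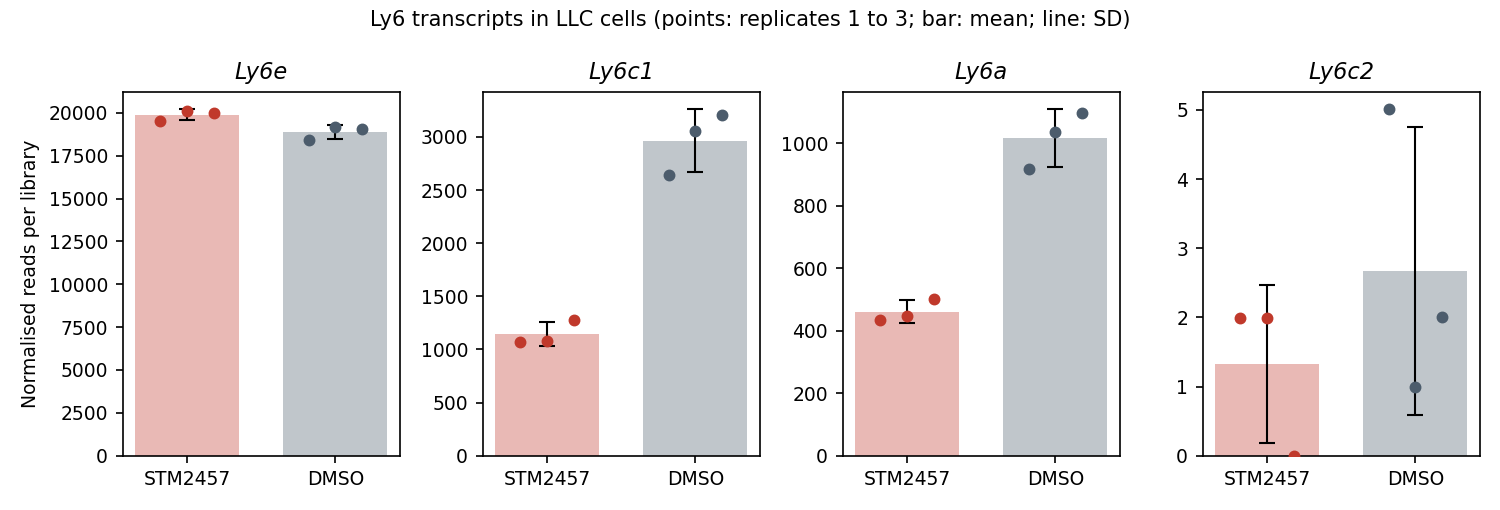
Normalised reads per library (vertical axes, linear from 0, each panel with its own scale) of Ly6e, Ly6c1, Ly6a and Ly6c2 in STM2457 and DMSO libraries, where points are replicates 1 to 3, bars are means and lines are the SD. Ly6c1 and Ly6a sit lower in all 3 STM2457 libraries, Ly6e sits slightly higher, and Ly6c2 overlaps at 0 to 5 reads.

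Against all tested genes, separation of the groups was common. In 61.8% of the 12618 tested genes all 3 libraries of 1 group lay above the other group, and in 28.4% it was the STM2457 group that was lower. Ly6a, Ly6c1 and Ly6e were among the separated genes, and nothing is read from that count because the contrast chose them. A fall of at least 2-fold in the recovered reads was present in 2.88% of tested genes (363 genes), Ly6a and Ly6c1 among them, and a rise of that size in 0.579%. The median fold of all tested genes was 1.01.

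Per length, the order of the 4 genes did not differ between groups. Per kb of exon, Ly6e had 5250 ± 84.4 normalised reads after STM2457 and 4990 ± 110 after DMSO, and Ly6c1 had 681 ± 67.5 after STM2457 and 1770 ± 175 after DMSO. Ly6a had 383 ± 30.2 normalised reads per kb after STM2457 and 844 ± 76.4 after DMSO, and Ly6c2 had 0.483 ± 0.419 after STM2457 and 0.974 ± 0.762 after DMSO (SD, n = 3 each). Within each group, neighbours in this order did not overlap over the libraries. Among 24138 genes with a read, ranked by mean normalised reads not divided by length, Ly6e was 81st, Ly6c1 1923rd and Ly6a 5281st.

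The share of each gene in the reads of the 4 genes was different in the 2 groups. These shares are not divided by length. The Ly6e transcript is the longest of the 4, so they give Ly6e more weight than a share of RNA molecules would. Ly6e made up 92.8%, 92.9% and 91.9% of the reads of the 4 genes in STM2457 replicates 1, 2 and 3, against 83.8%, 82.4% and 81.6% in DMSO replicates 1, 2 and 3. Ly6c1 contributed 5.1%, 5% and 5.84% after STM2457 and 12%, 13.1% and 13.7% after DMSO. The share of Ly6a was 2.06%, 2.07% and 2.31% after STM2457 and 4.18%, 4.46% and 4.69% after DMSO. The sum of the 4 genes was less different, at 1182, 1216 and 1230 CPM after STM2457 and 1240, 1325 and 1316 after DMSO.

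Ly6a and Ly6c1 moved together from library to library. Ly6a had 0.404, 0.414 and 0.395 reads for each Ly6c1 read in STM2457 replicates 1, 2 and 3, against 0.347, 0.34 and 0.342 in DMSO replicates 1, 2 and 3. This ratio averaged 0.404 ± 0.0095 after STM2457 and 0.343 ± 0.00361 after DMSO (SD, n = 3 each), so Ly6c1 was lower by a larger factor than Ly6a. Its spread within a group was small beside the spread of either gene alone. Of the 50-base windows of Ly6a, 15% also occur in Ly6c1, and how reads matching both genes were counted is not stated. The part of such reads in the shared movement was not tested.

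**Figure D2:**
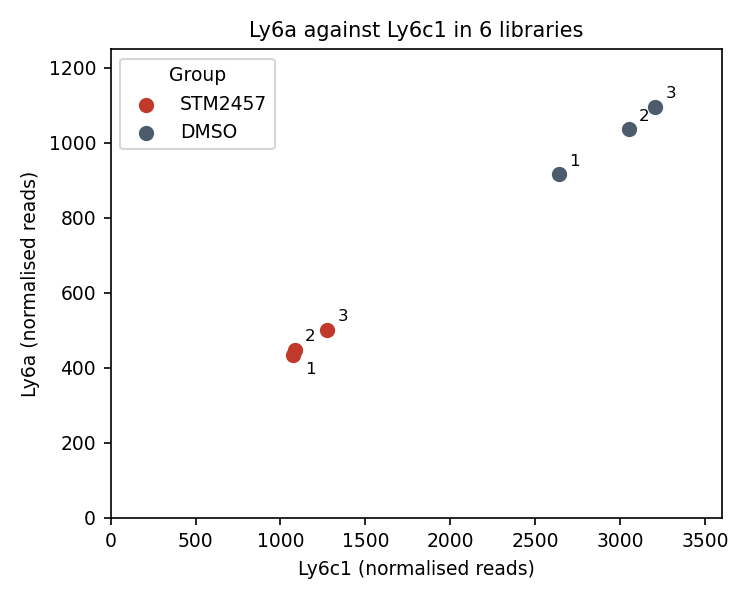
Normalised reads of Ly6a (vertical axis) against Ly6c1 (horizontal axis), both linear from 0, with 1 point per library numbered by replicate. The 3 STM2457 libraries lie between 433.1 and 502.4 reads of Ly6a, below the DMSO libraries at 916.4 to 1097, and within each group the library with more Ly6c1 also has more Ly6a.

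The genes most like each member over the 6 libraries were taken by Pearson's r of the deposited log2 values among 10971 tested genes with a gene name. These values describe 2 groups of 3 libraries and are driven by the difference between the groups, so they carry no p. For Ly6a the closest were Ly6c1 (r = 0.9997), the glutathione transferase gene Gstm1 (0.9992), Ranbp3l (0.9988), Fam71f2 (0.9979) and Ppox, an enzyme of haem synthesis (0.9979). For Ly6c1 they were Ly6a (0.9997), Gstm1 (0.9995), Vps28, a subunit of the ESCRT-I complex (0.999), Ranbp3l (0.9985) and Fam71f2 (0.9984). The folds of these genes were 0.551 for Gstm1, 0.323 for Ranbp3l, 0.377 for Fam71f2, 0.713 for Ppox and 0.83 for Vps28. Ly6e correlated with Ly6a at r = -0.771 and with Ly6c1 at r = -0.78. Its closest genes were Wiz (0.993), the replication factor C subunit gene Rfc5 (0.9911), the progranulin gene Grn (0.9894), Rhbdf1 (0.9893) and Ldb1 (0.9874), with folds of 1.09, 1.05, 1.22, 1.19 and 1.08 in that order.

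In sequence, the core GGACT, a common context of m6A, was counted on the sense strand of the longest coding transcript of each gene. Ly6a had 1 in 955 bases, Ly6c1 3 in 844 bases, Ly6c2 3 in 822 bases and Ly6e 4 in 2281 bases. Per kb this was 1.05 for Ly6a, 3.55 for Ly6c1, 3.65 for Ly6c2 and 1.75 for Ly6e, against a median of 1.01 over 21877 coding genes. At least 1 GGACT was present in 87.6% of these genes, and in 68.2% of the 2911 with transcripts of 700 to 1300 bases. Methylation was not measured, and a match is not a methylated site.

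Few other Ly6/uPAR family genes reached the test. Of 42 genes listed 23 had no read, and 2 were tested. A lack of reads was as common in the whole table, where 31229 of 55367 genes had none and 12618 were tested. For comparison, limma called 56.3% of all tested genes at an adjusted p under 0.05, 30.7% higher and 25.7% lower after STM2457. Centring the libraries on their median turned that split from 3868 higher and 3240 lower into 2941 higher and 4621 lower. Plaur, the urokinase receptor gene, had 817, 775 and 786 reads in STM2457 replicates 1, 2 and 3, against 653, 604 and 648 in DMSO replicates 1, 2 and 3, and rose 1.24-fold (limma adjusted p = 3.1e-05). Lynx1, whose product modulates nicotinic acetylcholine receptors, had 19, 22 and 21 reads after STM2457 and 33, 31 and 33 after DMSO, and fell with a fold of 0.639 (limma adjusted p = 0.011). The groups did not overlap for either gene. The remaining family genes with reads were low: Ly6g, the neutrophil marker gene, had 7, 3 and 6 reads after STM2457 and 5, 4 and 7 after DMSO, and Ly6i, which lies between Ly6e and Ly6a, had 0, 1 and 0 reads after STM2457 and 2, 1 and 4 after DMSO. Both were singled out after their values were seen.

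Around the Ly6 genes, 23 of 82 annotated genes within 1 Mb were tested, and 5 rose and 2 fell, shares under those of all tested genes. Their median fold was 1.06, against 1.01 over all tested genes. With median centring 4 rose and 6 fell, against 2941 and 4621 of all 12618 tested genes. The nearest tested gene was Lynx1, 202 kb from Ly6e, so no tested gene other than the members lay inside the stretch from Ly6e to Ly6c2. Next came Them6 and Jrk, 230 and 246 kb from Ly6e and not called. On the other side Zfp41, 2810039B14Rik and the mitochondrial topoisomerase gene Top1mt lay 505, 530 and 545 kb from Ly6c2 and were not called. Farther out, the transcription factor gene Mafa rose 1.49-fold (limma adjusted p = 0.004), Zc3h3 1.14-fold (0.011) and the elongation factor gene Eef1d 1.21-fold (5.4e-07). Mroh6 fell with a fold of 0.544 (limma adjusted p = 0.036), and the pyroptosis gene Gsdmd and the NAD synthesis gene Naprt, on either side of it, were not called. The other genes that rose were Tigd5 at 1.73-fold (limma adjusted p = 3.3e-06) and the splicing factor gene Puf60 at 1.11-fold (0.0013), named after their values were seen. Without DMSO replicate 1 the calls of Zc3h3 (limma adjusted p = 0.054) and Mroh6 (0.11) were lost. Zc3h3 was also lost without STM2457 replicate 3 (limma adjusted p = 0.084), and Mroh6 without DMSO replicate 3 (0.12), STM2457 replicate 1 (0.11) and STM2457 replicate 2 (0.11). Other settings that ended a call were median centring (limma adjusted p = 0.081) and upper-quartile centring (0.12) for Zc3h3, and the fit with no trend and no robust prior for Mroh6 (0.083).

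**Figure D3:**
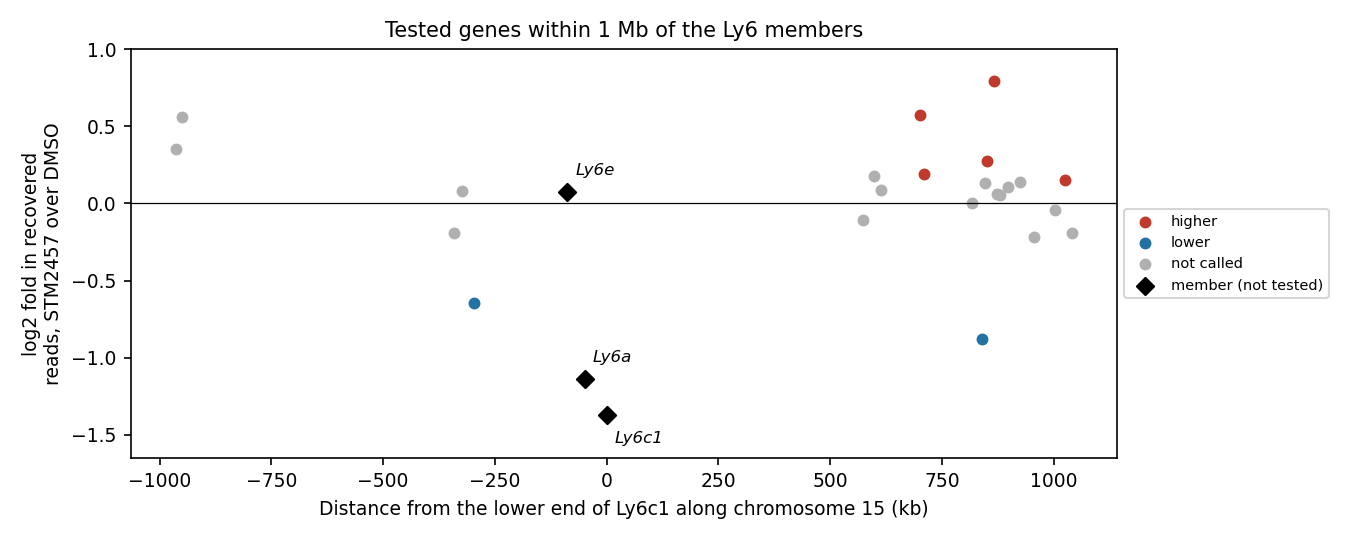
Log2 fold in recovered reads, STM2457 over DMSO (vertical axis), of the tested genes within 1 Mb of the Ly6 genes against distance along chromosome 15 from the lower end of Ly6c1 in kb (horizontal axis), with circles coloured by limma call and diamonds for the Ly6 members, which have no test. Ly6c1 at -1.38 and Ly6a at -1.14 lie below every other gene plotted, and Ly6e lies near 0. The set was built around Ly6c1 for its fall, so nothing about the locus is read from this placing.

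Ly6 proteins reach the surface through the GPI anchor, which a series of Pig and Dpm enzymes builds and the GPI transamidase attaches. Of 30 genes of anchor synthesis and attachment 29 were tested, with 10 higher, 6 lower and 13 not called, and a median fold of 0.985. With median centring 6 were higher and 9 lower, against 2941 and 4621 of all 12618 tested genes. The shares called over all tested genes, as deposited, were 30.7% higher and 25.7% lower. The transamidase subunit genes Pigs, at 1.26-fold (limma adjusted p = 2.3e-07), and Pigt, at 1.18-fold (3.1e-05), rose. So did Pigyl, listed under this symbol and matched through a synonym, at 1.53-fold (limma adjusted p = 1.2e-05), Pigq, of the enzyme that starts anchor synthesis, at 1.19-fold (1.3e-05), and Dpm2, of dolichol-phosphate mannose synthase, at 1.20-fold (7.8e-05). Among the 6 that fell were Dpm1, of the same synthase as Dpm2, with a fold of 0.68 (limma adjusted p = 2.5e-04), and Pign, which modifies the growing anchor, with a fold of 0.834 (8.0e-05), both named after their values were seen. Leaving out DMSO replicate 3 or STM2457 replicate 1 left 6 genes called higher.

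Among other proteins held by a GPI anchor most called genes were higher after STM2457. Of 59 genes listed 22 were tested, 11 rose, 1 fell and 10 were not called, with a median fold of 1.13. With median centring 5 rose and 3 fell, against 2941 and 4621 of all 12618 tested genes. Over all tested genes, limma called 30.7% higher and 25.7% lower on the scaling as deposited. Hyal2, a GPI-anchored hyaluronidase, had 706 ± 23.6 normalised reads after STM2457 and 381 ± 19.5 after DMSO (SD, n = 3 each), a rise of 1.85-fold (limma adjusted p = 1.1e-11). The ephrin genes Efna2 and Efna5 rose 1.48-fold (limma adjusted p = 1.1e-04) and 1.27-fold (4.4e-04), and Cd14, the lipopolysaccharide co-receptor, rose 1.34-fold (3.4e-04). Nrn1, a neurite growth protein, was the gene that fell, with a fold of 0.754 (limma adjusted p = 9.5e-05). Without STM2457 replicate 3 the count of falls was 2.

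Interferon-responsive genes were examined because Ly6 transcripts are known to respond to interferon. Of 51 interferon-stimulated genes listed 30 were tested, 11 rose, 4 fell and 15 were not called, with a median fold of 1.10. With median centring 5 rose and 7 fell, against 2941 and 4621 of all 12618 tested genes. Limma called 30.7% of all tested genes higher and 25.7% lower, as deposited. Ifit1, Mx1, Mx2, Rsad2, Oas1a, Oas2 and Oasl1 had at most 2 reads in any library and were not tested. Isg15 was not called, with a fold of 0.846. These 8 genes were named after their values were seen. Ifitm3, which limits virus entry, rose 1.26-fold (limma adjusted p = 4.1e-08), the GTPase gene Irgm1 1.52-fold (1.3e-06), Ifit2 1.22-fold (1.3e-05) and Irf9, the DNA-binding part of the ISGF3 complex, 1.40-fold (1.6e-04). Isg20, an exonuclease gene, fell with a fold of 0.646 (limma adjusted p = 3.0e-07). The others that fell, named after their values were seen, were Ifi27 at 0.773 (limma adjusted p = 0.0015), the chemokine gene Cxcl10 at 0.584 (0.0026) and the RNA-editing enzyme gene Adar at 0.885 (0.012).

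Of 31 genes of interferon and JAK-STAT signalling 29 were tested, 13 rose, 4 fell and 12 were not called, with a median fold of 1.10. With median centring 8 rose and 7 fell, against 2941 and 4621 of all 12618 tested genes. Of all tested genes, 30.7% were called higher and 25.7% lower as deposited. Socs1, an inhibitor of JAK signalling, rose 1.59-fold (limma adjusted p = 2.0e-07), Ptpn1, a phosphatase, 1.16-fold (9.4e-05) and the interferon receptor gene Ifnar2 1.23-fold (1.0e-04). Il6st, the shared receptor chain of the interleukin-6 family, fell with a fold of 0.805 (limma adjusted p = 5.8e-07) and Socs3, another inhibitor, with a fold of 0.827 (1.0e-04). The phosphatase genes Ptpn6 at 0.826 (limma adjusted p = 0.0085) and Ptpn2 at 0.90 (0.012) also fell, and were named after their values were seen. Without STM2457 replicate 2 the count of falls was 2.

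Among 21 binding partners, ligands and processing factors of Ly6/uPAR proteins 8 were tested, 5 rose, 1 fell and 2 were not called, with a median fold of 1.19. With median centring 4 rose and 1 fell, against 2941 and 4621 of all 12618 tested genes. For all tested genes the shares called as deposited were 30.7% higher and 25.7% lower. Furin, a proprotein convertase, rose 1.37-fold (limma adjusted p = 8.0e-09), the endocytic receptor gene Lrp1 1.29-fold (9.0e-09), the nicotinic receptor subunit gene Chrnb1 1.36-fold (1.1e-04) and Plat, tissue plasminogen activator, 1.27-fold (1.1e-04). Without DMSO replicate 2 the count of falls was 2.

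**Figure D4:**
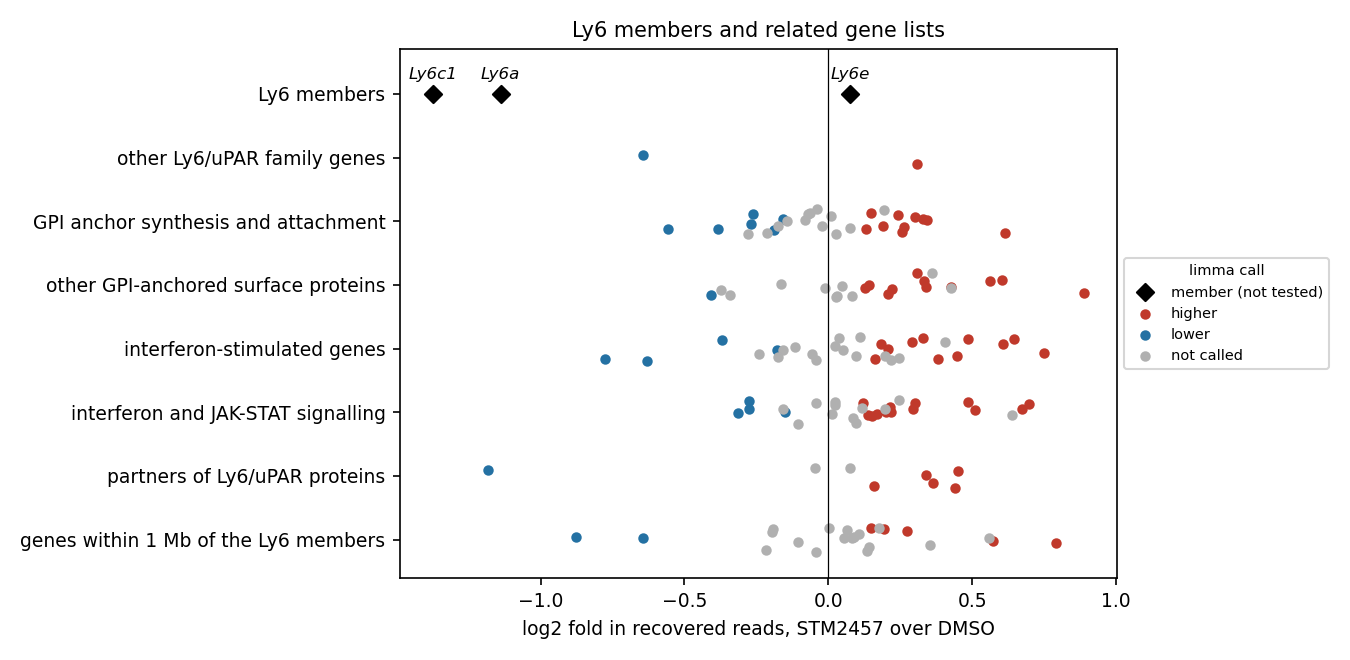
Log2 fold in recovered reads, STM2457 over DMSO (horizontal axis), of each tested gene in the Ly6 set and 7 related lists (vertical axis), with circles coloured by limma call and diamonds for the Ly6 members, which have no test. Ly6a and Ly6c1 lie at -1.14 and -1.38 and Ly6e at 0.08, and the called genes of each list lie on both sides of 0.

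Endothelial, monocyte and macrophage, and T cell markers were near 0 in all libraries, while some haematopoietic progenitor and fibroblast markers were expressed. The 8 endothelial markers summed to 5 to 10 reads after STM2457 and 5 to 8 after DMSO, with Emcn and Cldn5 at 0 throughout. The 10 monocyte and macrophage markers summed to 13 to 16 reads after STM2457 and 9 to 17 after DMSO, most of them Lyz2, with Itgam, Adgre1, Ccr2, Tyrobp and Spi1 at 0. The 8 T cell markers summed to 2 to 7 reads after STM2457 and 2 to 4 after DMSO, with Cd3e, Cd3g, Cd3d, Cd4 and Cd2 at 0. Of the 6 haematopoietic progenitor markers Kit was at 0 and 3 were tested, with sums over the list of 1783 to 1856 reads after STM2457 and 1898 to 1969 after DMSO. Among those 3, limma called Gata2 higher at 1.44-fold and Runx1 and Cd34 lower, at 0.851 and 0.893 of the DMSO level. Calls were common, with 30.7% of all tested genes called higher and 25.7% lower as deposited. The 8 fibroblast markers summed to 379 to 420 reads after STM2457 and 366 to 412 after DMSO, with Thy1 at 0. Of the 8, 6 were tested, with Pdgfrb called higher at 2.54-fold, and Col1a2 and Lum called lower at 0.465 and 0.289. Col1a1, Pdgfra and Dcn were not called, with folds of 0.761, 0.996 and 0.885. The part of these markers in the Ly6a and Ly6c1 values was not tested.

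The labels give lung as the tissue of the line. The 8 epithelial markers summed to 6 to 17 reads after STM2457 and 17 to 19 after DMSO, with Epcam, Cdh1, Cldn3 and Cldn4 at 0. The 8 lung epithelial markers summed to 23 to 26 reads after STM2457 and 17 to 25 after DMSO, nearly all from Ager, with Nkx2-1, Sftpa1 and Sftpd at 0. Apart from Ager, which had 16 to 24 reads a library and was not called, the listed lung epithelial markers were at or near 0 in these cells.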

How the data were processed

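Total RNA was extracted with TRIzol and sequenced from SMARTER mRNA-Seq libraries, per the labels' protocols. The authors used HISAT2 2.2.1, featureCounts 2.0.1 (Subread), FastQC 0.11.9 and DESeq2 with build GRCm38, per the submitters' processing notes. The annotation, strand use, read length and transform are not stated there. The authors deposited log2 values, 1 column per library, for 55367 genes, of which 31229 are listed at 0 throughout. From the values, these have the form of a regularised log2 transform, with a fitted prior SD of 0.186 that keeps 59.9% of a log2 difference at high counts, so they understate changes, most of all for low genes.

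The transform was inverted with an estimated ridge penalty of 60.299 and a dispersion of 1.8946 over the mean plus 0.011084. Of the values of 17555 genes with a mean under 500 reads, 98.9% were whole to within 0.05 reads, and above this the test weakens (89.5% from 500 to under 2000 reads, 66.8% from 2000). Values of the Ly6 genes lay within 0.156 reads of a whole number and were rounded. The inversion and the fits were also run on counts simulated with the same equations and fitted settings. Such a run cannot show that the deposited values have this form.

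Genes whose deposited log2 values averaged 3.32 or more (10 reads) were tested with limma 3.58.1 in R 4.3.3 (statmod 1.5.0; mean-variance trend and robust priors, group as the only term), with no pseudocount, and Benjamini-Hochberg adjustment ran over the 12618 genes, calling those at an adjusted p under 0.05. Folds come from limma-voom on recovered reads. Samples were grouped by the treatment in their labels, and columns were matched to samples by name. Promoters come from RefSeq and transcripts from GENCODE vM21, both on GRCm38.

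The members and lists were chosen with earlier results of these data known. The text names the 4 Ly6 genes, tested family genes, the 12 nearest tested genes within 1 Mb, up to 5 genes of smallest adjusted p from each other list, Mettl3, and the 5 genes most like each member; others are named as chosen after their values were seen, and marker genes come from the marker lists. The values of the partner gene called lower are not reported here. Alternatives were other scalings and filters, limma-voom, plain priors, a replicate block, and leaving out each library.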

Additional observations from a re-analysis of the deposited data

How the results depend on the processing

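Ly6a and Ly6c1 kept their direction under every alternative run. Their groups did not overlap, so leaving out 1 library could not have reversed it. Because the contrast chose these genes, this adds no support for their fall. Leaving out 1 library in turn gave log2 differences on the deposited scale of -0.634 to -0.56 for Ly6a, -0.827 to -0.741 for Ly6c1 and 0.034 to 0.053 for Ly6e. Limma-voom on recovered reads, which undoes the shrinkage of the deposited scale, gave -1.139, -1.375 and 0.076 in that order. For Ly6e, median centring gave 0.013 and upper-quartile centring 0.007. The median log2 difference of all tested genes was 0.004 as deposited, -0.029 with median and -0.034 with upper-quartile centring.

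Counts of calls in the lists moved with the scaling, as did those of all tested genes. Over all tested genes, median centring called 2941 higher and 4621 lower, and upper-quartile centring 2819 higher and 4814 lower. Upper-quartile centring gave the counts of median centring (genes within 1 Mb, 6 lower; anchor synthesis, 6 higher; other GPI-anchored proteins, 5 higher and 3 lower; interferon-stimulated genes, 5 higher; JAK-STAT signalling, 8 higher and 7 lower) except for 7 lower genes within 1 Mb and 8 lower interferon-stimulated genes, against 7. Without a filter 2 other family genes were lower, Lynx1 and Lypd6b, and with a minimum mean log2 of 5 none was. The stricter filter also left 0 lower genes within 1 Mb, since it does not test Lynx1 and Mroh6. Leaving out 1 library gave 1 to 2 lower genes within 1 Mb, 6 to 10 higher genes of anchor synthesis, 1 to 2 lower GPI-anchored proteins, 2 to 5 lower JAK-STAT genes and 1 to 2 lower partners.

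Of 39 named genes recomputed under each alternative no called gene changed direction, and Zc3h3 and Mroh6 were those that lost a call. Median centring called Jrk (limma adjusted p = 0.049) and Mettl3 (0.035) lower, upper-quartile centring called both (0.042 and 0.04) and Zfp41 (0.046), and leaving out DMSO replicate 1 called Mettl3 (0.0089).

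Deviations of same-numbered libraries correlated at 0.05, 0.011 and 0.04, and those of differently numbered libraries at -0.056 to 0.022. The highest values, 0.05 and 0.04, were of same-numbered libraries, but all were small. Whether replicate numbers pair the libraries is therefore not settled. With the replicate block 3864 genes were higher and 3226 lower, against 3868 and 3240 without it, and no list count changed. Depth limits Ly6c2 and the other family genes, most of which had under 10 reads a library.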
